A study of Mus musculus with 31 samples.

Results

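The lipid droplet and lipolysis genes described here are 10 mouse genes picked by name for their roles, with earlier results from these data known. They are the perilipins Plin2, Plin4 and Plin5, the CIDE proteins Cidea, Cideb and Cidec, the triglyceride lipase Pnpla2 with its inhibitor G0s2, the phosphatidate phosphatase Lpin1 and the acyl-CoA thioesterase Acot11. These are 10 of the 55288 gene identifiers in 2 tables of RNA-seq counts, and all 10 are in each table (35275 identifiers in the first and 54532 in the second). The first table holds 15 livers of ERRα WT and ERRα KO mice on a C57BL/6N background that were fasted for 12 h overnight, injected intraperitoneally with saline or with insulin at 1 unit/kg, and sampled 4 h later (WT saline, WT insulin and ERRα KO saline, n = 4 each, and ERRα KO insulin, n = 3). The second table holds 8 livers and 8 skeletal muscles of WT and ERRα3SA mice of the same strain (n = 4 for each tissue and genotype), with no treatment named. ERRα, encoded by Esrra, is a nuclear receptor that acts on genes of energy metabolism. ERRα KO mice lack it, and ERRα3SA mice are homozygous for a knock-in in which serines are replaced by alanine, with WT littermates as controls. The mice were males aged 2 to 3 months on a standard diet, and the muscles were gastrocnemius and soleus. The feeding state of the ERRα3SA mice at collection and whether liver and muscle came from the same mice are not given in the labels. Each sample is a bulk tissue, so that fewer cells of a type and less RNA per cell cannot be told apart in any value below.

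Total counts per library ran from 35871419 to 48317108 in the insulin experiment, from 20481405 to 33412022 in the ERRα3SA experiment's livers and from 22241960 to 28835765 in its muscles. Levels are given as CPM (counts scaled to library size with TMM normalization), which serve to compare a gene between samples of 1 table. Levels of different genes are compared only as TPM, which scale counts to gene length as well as to library size. Fold changes are log2 values from edgeR's quasi-likelihood test with their standard errors (SE). The p-values were adjusted over all genes tested in a comparison by the Benjamini-Hochberg method, and a gene is called changed where the adjusted p is under 0.05. The p-values set a difference between groups against the spread between these samples, which is estimated with information from all genes tested.

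Cells store triglyceride in lipid droplets, whose surface carries perilipins that govern the access of lipases to the stored fat, and CIDE proteins that enlarge droplets or, in the case of CIDEB in hepatocytes, take part in loading lipid onto lipoproteins. Adipose triglyceride lipase, encoded by Pnpla2, starts triglyceride breakdown and is held back by the small protein G0S2, while lipin 1, encoded by Lpin1, makes the diacylglycerol from which triglyceride is built. In the fasted state fatty acids flow to the liver, droplets accumulate there and are drawn on for oxidation, and insulin turns this flow around.

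Because ERRα and the factors that answer insulin bind DNA near gene starts, the promoters of Plin4, Lpin1 and Plin5, the members with the largest insulin responses in WT livers, and of Plin2, which fell with insulin in ERRα KO livers, are shown, each 300 bases long (250 before to 50 after the start), 5′ to 3′ on the gene's own strand, from RefSeq on GRCm38.p6. They are Plin2 (chr4:86670010-86670309, minus strand), Plin4 (chr17:56109733-56110032, minus strand), the outer of the starts listed for Plin5 (chr17:56117499-56117798, minus strand) and Lpin1 (chr12:16610917-16611216, minus strand). Capitals mark the nuclear receptor half-site AGGTCA, on either strand, and the E-box CACGTG.
Plin2: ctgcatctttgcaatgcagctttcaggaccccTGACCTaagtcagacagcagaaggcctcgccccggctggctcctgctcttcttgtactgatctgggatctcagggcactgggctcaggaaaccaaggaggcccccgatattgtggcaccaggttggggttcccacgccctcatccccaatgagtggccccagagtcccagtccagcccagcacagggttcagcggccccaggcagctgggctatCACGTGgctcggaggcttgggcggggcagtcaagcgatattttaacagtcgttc
Plin4: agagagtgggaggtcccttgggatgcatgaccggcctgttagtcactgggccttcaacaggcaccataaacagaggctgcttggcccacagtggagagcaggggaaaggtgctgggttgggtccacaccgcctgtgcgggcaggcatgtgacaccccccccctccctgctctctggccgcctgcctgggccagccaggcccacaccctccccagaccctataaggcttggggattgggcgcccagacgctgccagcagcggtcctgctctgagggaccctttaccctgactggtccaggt
Plin5: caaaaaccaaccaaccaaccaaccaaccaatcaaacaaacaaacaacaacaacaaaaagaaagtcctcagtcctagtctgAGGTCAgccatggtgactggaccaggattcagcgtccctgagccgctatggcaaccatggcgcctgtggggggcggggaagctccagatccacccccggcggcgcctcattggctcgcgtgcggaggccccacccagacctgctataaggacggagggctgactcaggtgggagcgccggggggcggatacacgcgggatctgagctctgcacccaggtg
Lpin1: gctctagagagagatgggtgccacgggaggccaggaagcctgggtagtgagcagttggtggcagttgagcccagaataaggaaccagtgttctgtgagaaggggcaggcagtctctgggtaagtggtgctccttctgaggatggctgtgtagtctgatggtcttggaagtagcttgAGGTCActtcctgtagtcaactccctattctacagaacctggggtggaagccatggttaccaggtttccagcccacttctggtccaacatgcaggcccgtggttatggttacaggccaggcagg

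RefSeq promoters were found for 9 of the 10 members (12 promoters, since some genes have more than 1 start). Cidea has none in the table used. The half-site AGGTCA was in 4 of the 12 member promoters, those of Plin2 (218 bases before the start, on the opposite strand), Lpin1 (74 bases before) and both starts of Plin5 (170 bases before the outer start and 13 after the inner one), against 16.3% of all 32851 promoters of the same length. The longer ERR response element TNAAGGTCA, which contains the half-site, was in 0 of 12 (1.28% of all promoters). The E-box was in 2 of 12 (7.15% of all), 4 bases before the start of Plin2 and 154 before a start of Acot11. The forkhead core GTAAACA (3.65% of all) and the sterol response element TCACNCCAC (1.24% of all) were each in 0 of 12, all motifs being searched on both strands. A match says only that these letters are in the window. Plin4 and Plin5 are neighbours on the minus strand of chromosome 17, with 1797 bases between them.

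Levels of Esrra were read first as a check of the labels. In the livers of ERRα KO mice Esrra stood at 1.63, 0.703, 1.15 and 1.04 CPM after saline and 0.833, 0.576 and 0.298 CPM after insulin. WT livers held 32.3, 51.3, 42.7 and 40.5 CPM after saline and 53.7, 96.4, 56.1 and 59.0 CPM after insulin, so that every ERRα KO library lay far below every WT library. The difference was -5.20 on the log2 scale after saline (SE 0.24, adjusted p = 2.58e-06) and -6.86 after insulin (SE 0.37, adjusted p = 3.55e-05). In the ERRα3SA experiment the mutated gene is still transcribed, so its level does not mark the genotype. Livers held 26.2, 25.7, 26.8 and 28.0 CPM in WT and 27.9, 24.1, 20 and 18.4 CPM in ERRα3SA mice. Muscles held 94.1, 86.0, 69.6 and 81.5 CPM in WT and 25.8, 139.6, 134 and 102.5 CPM in ERRα3SA mice. Tissue labels were checked against markers of their main cell type. The summed level of 5 hepatocyte markers, led by Alb, was 81170.2 to 98282 CPM in the WT livers of that experiment and 0.473 to 1.32 CPM in its WT muscles. That of 5 skeletal muscle fibre markers, with Myh4 the largest part of the CPM sum in muscle, was 108942 to 122801 CPM in WT muscles and 0.526 to 10.3 CPM in WT livers.

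Several libraries stood apart from the others of their group. In the insulin experiment, WT insulin 2 had the highest Esrra level of all 15 livers (96.4 CPM, with 53.7 to 59.0 in the other 3 of its group), the smallest share of counts from the mitochondrial genome (1.88%) and a low Plin2 level (292 CPM, with 546 to 581 in the others). The liver of WT insulin 3 carried muscle transcripts, with a summed muscle fibre level of 69.8 CPM against 0.830 to 3.21 CPM in its group. Scaled by its Acta1 level (30.4 CPM, against a mean of 29659.5 CPM in WT muscles of the other table), muscle RNA at the mean levels of WT muscles would hold 0.163 CPM of Plin4 and 0.395 CPM of Lpin1, and this liver held 32.8 and 887 CPM. The scaling rests on 1 library and takes the ratios of genes in muscle from the other table. That these ratios hold in this liver was not tested, nor was any cause of its member levels. In the ERRα3SA experiment, ERRα3SA liver 4 had a summed hepatocyte level of 51077 CPM, below the 81170.2 to 98282 CPM of the other 7 livers. ERRα3SA muscle 1 drew 19.3% of its counts from the mitochondrial genome, against 9.15% to 10.8% in the other 7 muscles. Its summed muscle fibre level was 189153 CPM, with 86567 to 122801 in the other 7, and its Myh4 level 110571 CPM, with 35635 to 57089.7. ERRα3SA muscle 4 had a summed fibroblast level of 2958 CPM (1084 to 1645 in the other 3) and a summed macrophage level of 85.3 CPM (25.5 to 32.0). Of the fibroblast markers Col3a1 (1565 CPM) and Col1a1 (898 CPM) were highest there of all 8 muscles, and Dcn (409 CPM) was lowest. Counts and calls are therefore also given without WT insulin 2 and 3 and without ERRα3SA muscle 1 and 4 where they change.

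The first comparison asks how these genes answer insulin in the liver of WT and of ERRα KO mice. In WT livers insulin raised 4 of the 9 members tested (Plin4, Plin5, Cidec and Lpin1) and lowered 0, while 425 of all 13463 genes tested were called (3.16%, 205 higher and 220 lower). In ERRα KO livers 5 of 9 members changed, with Plin4, Plin5, Pnpla2 and Lpin1 higher and Plin2 lower, against 398 of 13684 genes (2.91%, 213 higher and 185 lower). At an unadjusted p under 0.05 the counts were 5 of 9 members in WT (17.5% of all genes) and 6 of 9 in ERRα KO livers (17.8% of all genes). The median log2 fold change over the members tested was 0.46 in WT and 0.58 in ERRα KO livers, against 0.00 and -0.02 over all genes. The members were chosen with earlier results from these data known. Here and below, their counts and medians therefore describe them and are no test against all genes. Cidea, with 0 to 22 counts per liver, did not pass the filter on low counts and was not tested in either. DESeq2 called 942 genes in WT and 1013 in ERRα KO livers, with 4 and 5 members among them. White adipocyte markers moved with insulin in WT livers: their sum over 7 genes was 5.28, 5.61, 4.30 and 4.53 CPM after saline and 9.56, 6.72, 6.88 and 4.67 CPM after insulin, with overlap through WT insulin 4. Fabp4 was at 2.38, 3.05, 2.88 and 2.13 CPM after saline and 7.49, 5.02, 4.83 and 2.61 CPM after insulin. Adipoq was at 0, 0.0275, 0.183 and 0.185 CPM after saline and 0.186, 0.851, 0.143 and 0.166 CPM after insulin. Fabp4 made up most of the gain, while Adrb3 of the same list went the other way, at 2.69, 2.28, 0.731 and 1.46 CPM after saline and 0.212, 0.539, 1.03 and 1.35 CPM after insulin. In ERRα KO livers the sum was 9.97, 6.50, 13.2 and 10.1 CPM after saline and 16.9, 7.55 and 12.1 CPM after insulin, with overlap. The part of these cells in the members' responses was not tested.

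These counts moved with single libraries. In WT, 105 genes were called without WT saline 4, 164 without WT saline 1 or WT insulin 4, 186 without WT saline 3 and 281 without WT saline 2. The members called in WT were 2 without WT saline 1, WT saline 3, WT insulin 3 or WT insulin 4 and 5 without WT saline 2. In ERRα KO mice, 42 genes were called without ERRα KO insulin 2, 65 without ERRα KO insulin 4, 84 without ERRα KO insulin 1, 177 without ERRα KO saline 4 and 608 without ERRα KO saline 3. The members called were 2 without ERRα KO insulin 2, 3 without ERRα KO insulin 1, ERRα KO insulin 4 or ERRα KO saline 4, and 6 without ERRα KO saline 1. Without WT insulin 2 and 3 together, 171 genes and 2 members, Plin4 and Plin5, were called in WT livers.

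**Figure D1:**
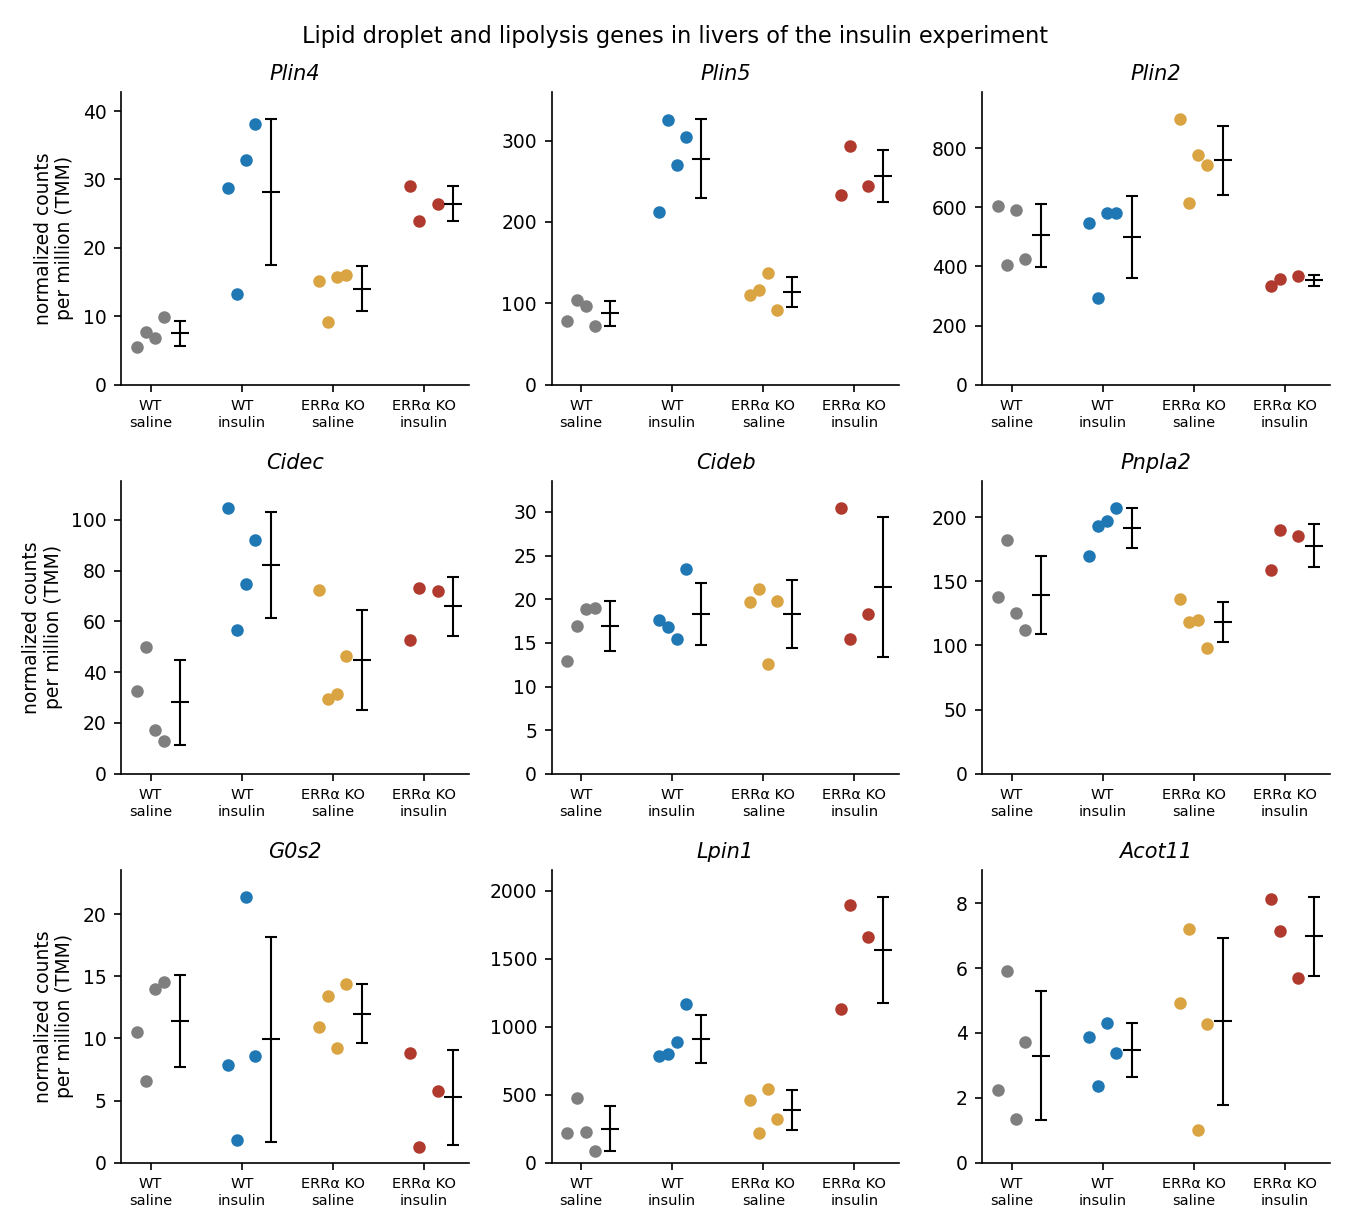
CPM (TMM-normalized, vertical axes, each starting at 0) of 9 members in every liver of the insulin experiment, 1 point per liver, with black bars for the group mean ± SD (n = 4, and n = 3 for ERRα KO insulin). The WT insulin points of Plin5 sit between 213 and 325 CPM, all above the 72.5 to 104.6 CPM of WT saline, and the ERRα KO insulin points of Plin2 (333 to 368 CPM) all lie below ERRα KO saline (616 to 900.0 CPM).

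Among the perilipins, Plin4 and Plin5 rose with insulin in both genotypes. Plin4 (ENSMUSG00000002831, chr17:56100591-56109803, minus strand) codes for a coat protein of small, nascent droplets. Its level was 5.59, 7.67, 6.85 and 9.91 CPM in WT saline and 28.7, 13.3, 32.8 and 38.1 CPM in WT insulin livers. In ERRα KO livers it was 15.1, 9.11, 15.8 and 16.1 CPM after saline and 29.1, 23.9 and 26.4 CPM after insulin. All 4 WT insulin livers lay above all 4 WT saline livers, WT insulin 2 by the least, and the 3 ERRα KO insulin livers lay above the 4 given saline. The rise was 1.91 on the log2 scale in WT (SE 0.29, adjusted p = 0.00767) and 0.91 in ERRα KO livers (SE 0.19, adjusted p = 0.0290). In WT it was called under every alternative tried, adjusted p running up to 0.0333. The ERRα KO call ended in the fit over all 4 groups (adjusted p = 0.114) and without ERRα KO saline 4 (0.0506), ERRα KO insulin 1 (0.116), 2 (0.110) or 4 (0.113), the adjusted p over its alternatives being 0.000381 to 0.116. A small stretch of its exons (0.294%) overlaps Hdgfl2 on the other strand.

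Plin5 (ENSMUSG00000011305, chr17:56111601-56117596, minus strand), whose protein links droplets to mitochondria in oxidative tissues, had 77.9, 105, 96.8 and 72.5 CPM in WT saline and 213, 325, 269.7 and 304 CPM in WT insulin livers. ERRα KO livers held 110.0, 116, 137 and 91.7 CPM after saline and 233, 293 and 245 CPM after insulin. No insulin library overlapped the saline libraries of its genotype, and the lowest insulin value was 213 CPM where the highest saline value was 137. The increase was 1.66 on the log2 scale in WT (SE 0.17, adjusted p = 0.00197) and 1.17 in ERRα KO livers (SE 0.15, adjusted p = 0.00503). It was called in both genotypes under every alternative, with adjusted p up to 0.0107 and 0.0411.

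Plin2 (ENSMUSG00000028494, chr4:86648386-86670060, minus strand), the main droplet coat protein of hepatocytes, behaved otherwise. In WT livers it was at 605, 404, 590.5 and 424 CPM after saline and 546, 292, 580.2 and 581 CPM after insulin, and the groups overlapped (log2 fold change -0.02, 95% interval -0.51 to 0.47, adjusted p = 0.979). The sign of this difference turned without WT saline 1 (0.08), WT saline 3 (0.06) or WT insulin 2 (0.17). ERRα KO livers held 900.0, 616, 776 and 743.5 CPM after saline and 333, 358 and 368 CPM after insulin, with no overlap. There insulin lowered Plin2: the level fell by 1.11 on the log2 scale (SE 0.14, adjusted p = 0.00571), and the call held under every alternative, with adjusted p up to 0.0493.

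Whether insulin acted differently in the 2 genotypes was tested by the interaction of genotype and insulin. edgeR called 0 of the 10 members and 0 of 14670 genes (0%), DESeq2 called 0 members and 20 genes, and at an unadjusted p under 0.05 there were 2 members against 1289 genes (8.79%). The 2 were Plin2, with a difference between the insulin responses of -1.09 (ERRα KO minus WT, SE 0.29, unadjusted p = 0.00168, adjusted p = 0.422), and Plin4, with -0.99 (SE 0.39, unadjusted p = 0.0196, adjusted p = 0.518). For Plin5 it was -0.48 (SE 0.23, adjusted p = 0.575), for Cidec -0.99 (SE 0.52, adjusted p = 0.604) and for Lpin1 0.15 (SE 0.54, adjusted p = 0.953). Over all alternatives the Plin2 difference ran from -1.27 to -0.98, with adjusted p of 0.0554 to 0.845. That of Plin4 ran from -1.24 to -0.82, with adjusted p of 0.271 to 0.852, and neither was called in any. A response of a member that was called in 1 genotype and not in the other is thus not shown to differ between them. The median over the 10 members was -0.19, against -0.02 over all genes, a median that includes Cidea, which passed the filter here on 0 to 22 counts per liver (difference 2.47, SE 2.18, adjusted p = 0.771).

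**Figure D2:**
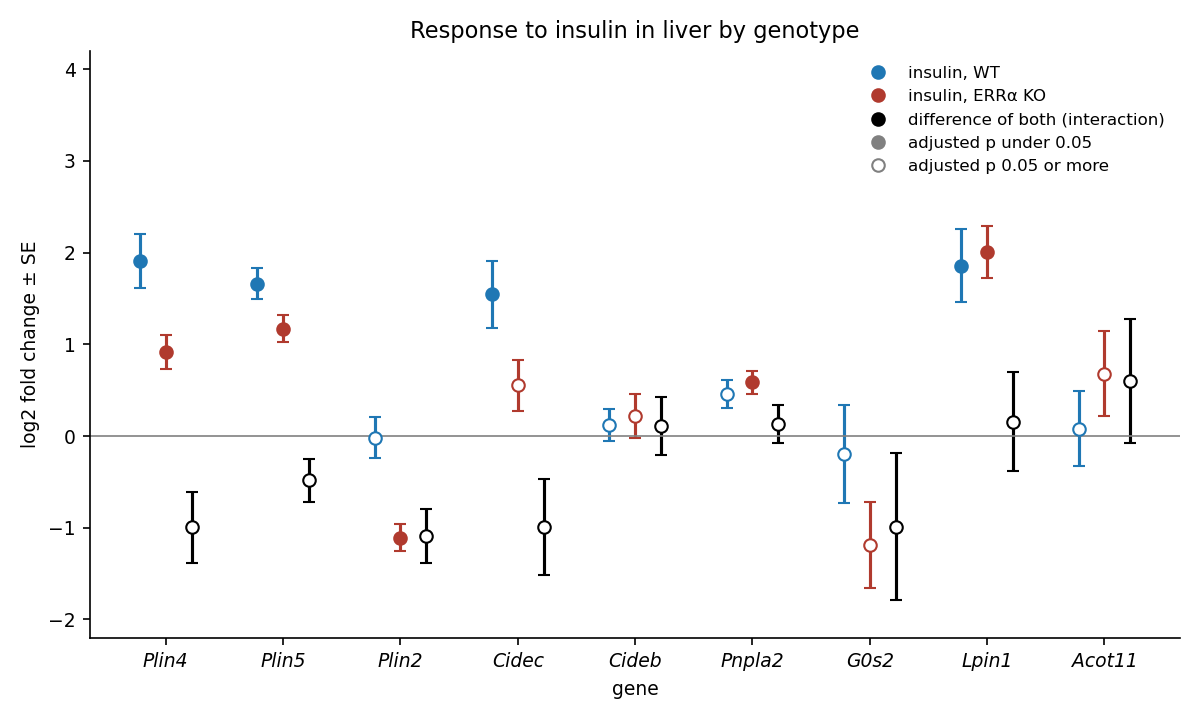
Log2 fold change with insulin (vertical axis, bars are ± SE) of 9 members in WT livers (blue), in ERRα KO livers (red) and the difference between both (black), with filled points where the adjusted p is under 0.05. Lpin1 has responses of 1.86 and 2.01, Plin4 of 1.91 and 0.91, and every black point is open.

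The 2 genotypes were also compared within each treatment, in comparisons that share their libraries with those of insulin. After saline, edgeR called 0 of 9 members in ERRα KO against WT livers, with 11 of 13481 genes called (0.0816%), while DESeq2 called 2 members and 254 genes and 3 members had an unadjusted p under 0.05 (12.1% of all genes). Those 3 were the perilipins, all with higher levels in ERRα KO livers: Plin4 with a log2 fold change of 0.90 (SE 0.22, unadjusted p = 0.00152, adjusted p = 0.181), Plin2 with 0.59 (SE 0.17, unadjusted p = 0.00490, adjusted p = 0.228) and Plin5 with 0.37 (SE 0.15, unadjusted p = 0.0315, adjusted p = 0.348). The members that DESeq2 called were Plin2 (adjusted p = 0.0344, with 0.0344 to 0.431 over all alternatives) and Plin4 (adjusted p = 0.0109, with 0.0109 to 0.354). Each of the 4 Plin2 values of ERRα KO saline, from 616 CPM up, exceeded the highest WT saline value of 605 CPM, by little in ERRα KO saline 2. Plin4 overlapped through ERRα KO saline 2 (9.11 CPM) and WT saline 4 (9.91 CPM). The median over the 9 members was 0.40 against 0.00 over all genes. A white adipocyte marker sum over 7 genes moved with the genotype. It was 5.28, 5.61, 4.30 and 4.53 CPM in WT saline and 9.97, 6.50, 13.2 and 10.1 CPM in ERRα KO saline livers. Adipoq, which defines adipocytes, was at 0 to 0.485 CPM in these livers, and Adrb3 and Fabp4 contributed most. The part of these cells in the perilipin levels was not tested. The number of genes called was 2 without WT saline 1, 4 without ERRα KO saline 1, 5 without ERRα KO saline 4, 6 without WT saline 4 and 47 without ERRα KO saline 2, with 0 members called by edgeR in each of these fits.

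After insulin, 0 of 9 members were called by edgeR in ERRα KO against WT livers, with 8 of 13665 genes (0.0585%), 2 members and 248 genes by DESeq2, and 3 members at an unadjusted p under 0.05 (10% of all genes). These were Lpin1 (log2 fold change 0.77, SE 0.20, unadjusted p = 0.00291, adjusted p = 0.205), Acot11 (log2 fold change 0.99, SE 0.25, unadjusted p = 0.00276, adjusted p = 0.203) and Plin2 (log2 fold change -0.51, SE 0.22, unadjusted p = 0.0412, adjusted p = 0.469). The Plin2 values of ERRα KO insulin livers, at 333 to 368 CPM, were below 3 of the 4 WT insulin livers and above WT insulin 2. Lpin1 overlapped through ERRα KO insulin 1 (1132 CPM) and WT insulin 4 (1167 CPM). Without WT insulin 2 the Plin2 difference was -0.69 with an adjusted p of 0.0276, which made it a called decrease, whereas the adjusted p over all alternatives ran from 0.0276 to 0.892. DESeq2 called Lpin1 (adjusted p = 0.0142, with 0.0142 to 0.812 over all alternatives) and Acot11 (adjusted p = 0.0258, with 0.0258 to 0.720). Marker sums moved with this contrast too. The hepatocyte sum was 102329.6, 102739.6 and 95663 CPM in ERRα KO insulin and 79888, 85813, 77454 and 84913 CPM in WT insulin livers, without overlap. The white adipocyte sum was 16.9, 7.55 and 12.1 CPM in ERRα KO insulin and 9.56, 6.72, 6.88 and 4.67 CPM in WT insulin livers, with overlap. Their part in the member values was not tested. The median over the members was -0.12, against -0.02 over all genes. The number of genes called was 48 without WT insulin 2, 3 without ERRα KO insulin 1, 4 without ERRα KO insulin 2 or WT insulin 4, and 5 without ERRα KO insulin 4 or WT insulin 1.

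Of the CIDE proteins, Cidec (ENSMUSG00000030278, chr6:113424634-113435760, minus strand), which drives the fusion of small droplets into large ones, was raised by insulin in WT livers. It had 32.5, 49.9, 17.3 and 13.0 CPM in WT saline and 105, 56.8, 74.9 and 92.1 CPM in WT insulin livers, so that the lowest insulin value stood just above the highest saline value. The increase was 1.54 on the log2 scale (SE 0.37, adjusted p = 0.0466), close to the threshold. It was no longer called without WT saline 1 (adjusted p = 0.111), 3 (0.132) or 4 (0.108), without WT insulin 1 (0.0911), 2 (0.0515), 3 (0.0682) or 4 (0.111), or without WT insulin 2 and 3 together (0.0926), and over all alternatives the adjusted p was 0.0167 to 0.132. ERRα KO livers held 72.3, 29.4, 31.5 and 46.4 CPM after saline and 52.6, 73.2 and 72.0 CPM after insulin, where ERRα KO saline 1 reached the level of the insulin livers (log2 fold change 0.55, SE 0.27, adjusted p = 0.331). Without that library the log2 fold change was 0.88 and called (adjusted p = 0.0440, with 0.0440 to 0.626 over all alternatives).

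Cideb (ENSMUSG00000022219, chr14:55754050-55758458, minus strand), the CIDE protein of hepatocytes, overlapped between all 4 groups of the insulin experiment, at 12.9 to 19.0 CPM in WT saline, 15.4 to 23.5 in WT insulin, 12.6 to 21.2 in ERRα KO saline and 15.4 to 30.5 CPM in ERRα KO insulin livers. Insulin and saline livers differed by a log2 fold change of 0.12 in WT (adjusted p = 0.786) and 0.22 in ERRα KO livers (adjusted p = 0.697), and each sign turned with 1 library left out (-0.02 without WT insulin 4 and -0.12 without ERRα KO insulin 1). Nop9 on the opposite strand covers 76.3% of the exon length of Cideb, and whether reads were counted by strand is not given in the sources used here, so its level is uncertain. Cidea (ENSMUSG00000024526, chr18:67343604-67367785, plus strand), known best from brown fat, was near absent in liver, with 0, 2, 22 and 1 counts in the WT saline, 5, 0, 1 and 0 in the WT insulin, 21, 1, 0 and 2 in the ERRα KO saline and 18, 7 and 2 counts in the ERRα KO insulin libraries.

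Pnpla2 (ENSMUSG00000025509, chr7:141455198-141460743, plus strand), which encodes adipose triglyceride lipase, was at 138, 182, 125 and 112 CPM in WT saline and 169.6, 193, 197 and 207 CPM in WT insulin livers. Only WT saline 2 overlapped the insulin livers (log2 fold change 0.46, SE 0.15, unadjusted p = 0.0126, adjusted p = 0.152), and without that library the log2 fold change was 0.62 and called (adjusted p = 0.0474, with 0.0474 to 0.364 over all alternatives). In ERRα KO livers the values were 136.5, 118.5, 119.6 and 98.3 CPM after saline and 159, 189.6 and 185 CPM after insulin, without overlap. There the lipase rose by 0.58 on the log2 scale (SE 0.13, adjusted p = 0.0395). That call ended in the fit over all 4 groups (adjusted p = 0.0596), with the replicate number as a block (0.0758) and without ERRα KO saline 2 (0.0615) or 4 (0.0710) or ERRα KO insulin 1 (0.0841), 2 (0.183) or 4 (0.160), with 0.00145 to 0.183 over all alternatives. The interaction was 0.13 (95% interval -0.31 to 0.57, adjusted p = 0.889).

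G0s2 (ENSMUSG00000009633, chr1:193272161-193273217, minus strand), the inhibitor of this lipase, varied widely within groups. The livers held 10.5, 6.54, 14.0 and 14.5 CPM in WT saline, 7.89, 1.82, 21.4 and 8.61 in WT insulin, 10.9, 13.4, 9.22 and 14.4 in ERRα KO saline and 8.79, 1.23 and 5.78 CPM in ERRα KO insulin mice. WT insulin 3 was the highest and WT insulin 2 nearly the lowest of the 15, and the WT groups overlapped (log2 fold change -0.20, 95% interval -1.36 to 0.97, adjusted p = 0.895). With 1 library left out that log2 fold change ran from -0.90 (without WT insulin 3) to 0.15. In ERRα KO mice all 3 insulin livers lay below the 4 saline livers, but the difference was not called (log2 fold change -1.19, SE 0.47, unadjusted p = 0.0284, adjusted p = 0.213). It ran from -1.77 without ERRα KO insulin 1 to -0.72 without ERRα KO insulin 2.

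Lpin1 (ENSMUSG00000020593, chr12:16535669-16610966, minus strand), the phosphatidate phosphatase that feeds triglyceride synthesis, had the largest insulin response of the members in ERRα KO livers. WT livers held 219, 476, 222.5 and 86.1 CPM after saline and 787, 799.8, 887 and 1167 CPM after insulin. ERRα KO livers held 464, 221.5, 545 and 319 CPM after saline and 1132, 1897 and 1662 CPM after insulin. Every insulin liver exceeded every saline liver of both genotypes, while the saline livers themselves ranged from 86.1 to 545 CPM. The increase was 1.86 on the log2 scale in WT (SE 0.40, adjusted p = 0.0303) and 2.01 in ERRα KO livers (SE 0.28, adjusted p = 0.00758). It was no longer called in WT without WT saline 1 (adjusted p = 0.103), WT saline 3 (0.0979), WT insulin 3 (0.0520), WT insulin 4 (0.0814) or WT insulin 2 and 3 together (0.105), with 0.00379 to 0.105 over all alternatives, although its log2 fold change was never under 1.57. In ERRα KO livers it was lost without ERRα KO insulin 2 (adjusted p = 0.0539, with 4.83e-06 to 0.0539 over all alternatives).

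Acot11 (ENSMUSG00000034853, chr4:106744555-106804998, minus strand), a thioesterase that releases fatty acids from their CoA esters, was low in all 15 livers. It had 2.23, 5.91, 1.35 and 3.72 CPM in WT saline, 3.88, 2.35, 4.30 and 3.39 in WT insulin, 4.93, 7.20, 1.00 and 4.28 in ERRα KO saline and 8.12, 7.13 and 5.70 CPM in ERRα KO insulin livers. Insulin and saline livers overlapped in each genotype (log2 fold change 0.08, SE 0.41, adjusted p = 0.945 in WT and log2 fold change 0.68, SE 0.47, adjusted p = 0.498 in ERRα KO mice), and the WT sign turned without WT saline 1 (-0.07), WT saline 3 (-0.18) or WT insulin 3 (-0.04), with 0.52 without WT saline 2. In ERRα KO mice it was 0.35 without ERRα KO saline 3 and 1.04 without ERRα KO saline 2. All 3 ERRα KO insulin livers lay above all 4 WT insulin livers, the comparison given above. Fam151a covers 20.9% of its exon length on the opposite strand but had 0 to 3 counts in every library.

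Around the members, 45 other genes of droplets, lipases, glycerolipid synthesis, acyl-CoA thioesterases and acyl-CoA synthetases were followed. Insulin raised 2 of the 41 tested in WT livers and lowered 0, beside 3.16% of all genes called. Both code for glycerol-3-phosphate acyltransferases, of the first step of glycerolipid synthesis: Gpat4 (273, 321, 282 and 261 CPM after saline, 474, 486, 459.5 and 575 CPM after insulin, log2 fold change 0.81, adjusted p = 0.00767) and Gpat3 (7.79, 10.7, 5.92 and 8.74 and 16.1, 17.0, 14.4 and 14.2 CPM, log2 fold change 0.89, adjusted p = 0.0272). In ERRα KO livers 3 of 42 rose and 0 fell, beside 2.91% of all genes called. They were Gpat4 (log2 fold change 0.83, adjusted p = 0.0260), the lipin Lpin2 (0.71, adjusted p = 0.0132) and the diacylglycerol acyltransferase Dgat1 (0.51, adjusted p = 0.0312). For each of the 4 genes the insulin livers lay above the saline livers of the genotype in which it was called. With so few calls the lists are not shown to differ from other genes. Over all 5 lists an unadjusted p under 0.05 was found for 8 higher and 2 lower genes in WT (17.5% of all genes) and for 7 higher and 4 lower in ERRα KO livers (17.8% of all genes). The median log2 fold change over the 41 and 42 genes was 0.12 and -0.01. Between genotypes, edgeR called 0 of 42 after saline (4 higher and 1 lower at an unadjusted p under 0.05, beside 12.1% of all genes). It called 0 of 41 after insulin (2 higher and 4 lower, beside 10%) and 0 of 44 in the interaction (1 higher and 4 lower, beside 8.79%).

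Per length, Plin2 had the highest mean of the members in WT saline (409.9 TPM), WT insulin (402 TPM) and ERRα KO saline livers (599 TPM), and Lpin1 in ERRα KO insulin livers (431 TPM). In WT saline livers it was followed by Pnpla2 (106 to 168 TPM), Plin5 (99.0 to 139.5 TPM) and Lpin1 (25.4 to 137 TPM), whose ranges overlapped. Lpin1 also overlapped Cidec, and next came Cidec, G0s2 and Cideb (42.6, 37.4 and 32.4 TPM on average), which overlapped as well. The place of Cideb is uncertain, since Nop9 covers 76.3% of its exon length. Plin4, Acot11 and Cidea came last, with means of 3.70, 1.53 and 0.388 TPM. After insulin, WT livers held 273 to 414 TPM of Plin5, a range within that of Plin2 (215 to 507 TPM). In ERRα KO insulin livers Lpin1 (313 to 520.2 TPM) overlapped Plin5 (298 to 372.5 TPM), which lay above Plin2 (253 to 280.1 TPM).

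The next comparison asks whether the ERRα3SA mutation goes with other levels of these genes in liver. edgeR called 0 of the 9 members tested and 0 of 13339 genes (0%), DESeq2 called 0 members and 43 genes, and 1 member had an unadjusted p under 0.05 (7.47% of all genes). With any 1 library left out the edgeR counts were again 0, and Cidea, with 0 to 5 counts per liver, was not tested. The member was Acot11, with 4.49, 5.56, 4.48 and 6.06 CPM in WT and 5.68, 6.53, 7.53 and 11 CPM in ERRα3SA livers (log2 fold change 0.58, SE 0.21, unadjusted p = 0.0192, adjusted p = 0.629). ERRα3SA liver 4, the library with the low hepatocyte sum, was the highest, and without it the log2 fold change was 0.36, with adjusted p of 0.400 to 1.00 over all alternatives. The summed macrophage and Kupffer cell level was 272.5, 301.2, 297.3 and 298.9 CPM in WT and 338.3, 340.8, 289.5 and 381.9 CPM in ERRα3SA livers. This sum overlapped through ERRα3SA liver 3 and was highest in ERRα3SA liver 4. Its part in the Acot11 values was not tested. Plin2 was at 508, 496, 349 and 508 CPM in WT and 496, 615, 716 and 384 CPM in ERRα3SA livers (log2 fold change 0.25, 95% interval -0.19 to 0.68). G0s2 was at 48.2, 43.6, 25.0 and 60.2 CPM in WT and 43.8, 120.4, 79.7 and 18.0 CPM in ERRα3SA livers (log2 fold change 0.56, 95% interval -0.51 to 1.64). ERRα3SA livers 2 and 3 were highest and ERRα3SA liver 4 lowest for G0s2, and the genotypes overlapped for both genes. Without ERRα3SA liver 2 the G0s2 value was 0.09 and without ERRα3SA liver 4 it was 0.88, and without ERRα3SA liver 3 the Plin2 value was 0.10.

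Of the remaining members in these livers, Lpin1 stood at 83.1, 154, 54.3 and 59.4 CPM in WT and 76.5, 83.7, 147 and 30.5 CPM in ERRα3SA mice, and Cideb at 57.6, 56.9, 53.4 and 55.7 and 57.8, 60.8, 50.4 and 28.8 CPM. ERRα3SA liver 4 was again the lowest library for both, as it was for Plin4 (2.93, 3.61, 1.06 and 1.1 CPM in WT and 2.10, 3.31, 3.39 and 0.966 in ERRα3SA) and Plin5 (37.0, 34.3, 25.9 and 30.1 and 31.7, 37.6, 41.8 and 25.6 CPM). The part of its low hepatocyte sum in these values was not tested. Pnpla2 varied little, at 51.4 to 56.3 CPM in WT and 47.1 to 58.5 CPM in ERRα3SA livers (log2 fold change -0.05, 95% interval -0.21 to 0.12), and Cidec was low, at 1.02 to 2.44 and 0.715 to 4.05 CPM. The differences of Lpin1, Plin4, Plin5, Cidec and Cideb changed sign with 1 library left out. The median over the 9 members was 0.15, against 0.00 over all genes. Of the other 42 listed genes 0 were called by edgeR, and the only ones with an unadjusted p under 0.05 were the monoglyceride lipase Mgll (log2 fold change 0.35, unadjusted p = 0.0380, adjusted p = 0.651) and the thioesterase Acot7 (-0.24, unadjusted p = 0.0292, adjusted p = 0.639).

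**Figure D3:**
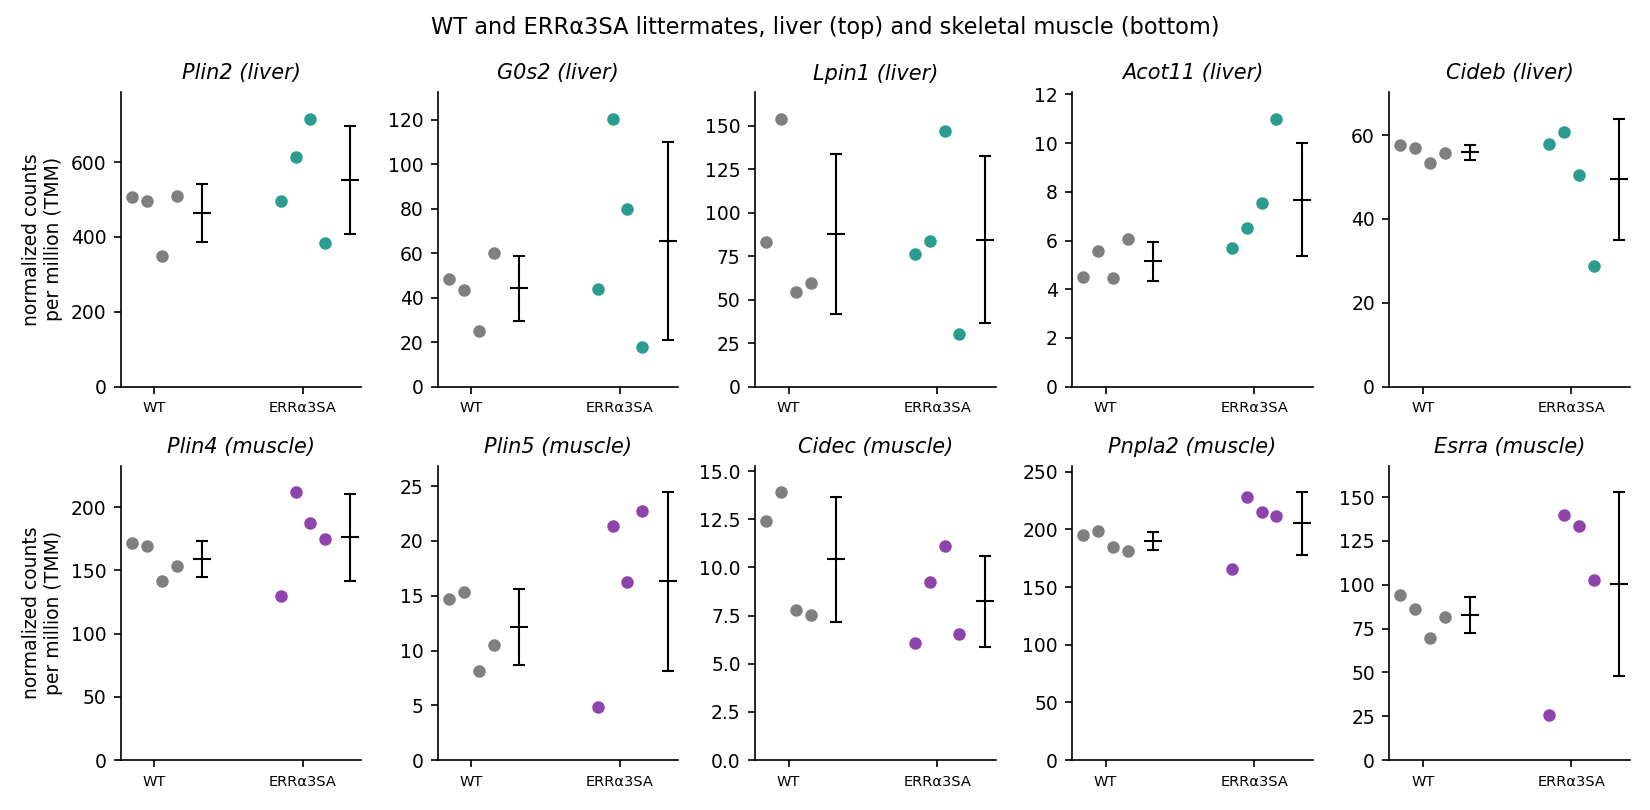
CPM (TMM-normalized, vertical axes from 0) of 5 genes in each liver (top) and 5 genes in each skeletal muscle (bottom) of WT and ERRα3SA mice, 1 point per sample, with the mean ± SD as black bars (n = 4). ERRα3SA muscle 1, the left point of its group, is the lowest of its group for Plin4 (129.9 CPM), Plin5 (4.83), Cidec (6.08), Pnpla2 (166) and Esrra (25.8 CPM).

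In muscle, edgeR called 0 of 9 members and 0 of 14081 genes (0%) between ERRα3SA and WT mice, DESeq2 called 0 members and 56 genes, and 0 members had an unadjusted p under 0.05 (4.77% of all genes). Cideb was not tested there, with 1 count over the 4 WT and 3 over the 4 ERRα3SA muscles. These counts turned on ERRα3SA muscle 1: without it 464 genes and 0 members were called, and without ERRα3SA muscle 1 and 4 it was 1505 genes and 2 members. Plin4 had 172, 169, 142 and 153 CPM in WT and 129.9, 212, 187 and 175 CPM in ERRα3SA muscles, with ERRα3SA muscle 1 the lowest of all 8 and the other 3 above every WT value. Over all 8 muscles its log2 fold change was 0.15 (95% interval -0.20 to 0.49, adjusted p = 1.00), and without ERRα3SA muscle 1 and 4 it was 0.33 and called (adjusted p = 0.0209, with 0.0209 to 1.00 over all alternatives). Without ERRα3SA muscle 1 alone it was 0.27 and not called, and without ERRα3SA muscle 2 it was 0.05. Pnpla2 had the same layout, at 195, 198.5, 185 and 181.5 CPM in WT and 166, 228, 215 and 212 CPM in ERRα3SA muscles, with a log2 fold change of 0.11 (95% interval -0.16 to 0.38, adjusted p = 1.00) and 0.22 without ERRα3SA muscle 1 and 4 (adjusted p = 0.0410, with 0.0410 to 1.00 over all alternatives). Without ERRα3SA muscle 1 alone it was 0.21 and not called, and without ERRα3SA muscle 2 it was 0.06. ERRα3SA muscle 1 and 4 were set aside after their values were seen.

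Plin5 was at 14.7, 15.3, 8.12 and 10.5 CPM in WT and 4.83, 21.4, 16.3 and 22.7 CPM in ERRα3SA muscles, the 4.83 CPM being again ERRα3SA muscle 1 and the other 3 lying above every WT value (log2 fold change 0.43, 95% interval -0.49 to 1.35). It was 0.73 without ERRα3SA muscle 1 (adjusted p = 0.0933, with 0.0529 to 1.00 over all alternatives), and 0.28 without WT muscle 3, 0.27 without ERRα3SA muscle 2 and 0.23 without ERRα3SA muscle 4. Lpin1 stood at 371, 378, 394 and 399 CPM in WT and 413, 383, 354 and 614 CPM in ERRα3SA muscles, where ERRα3SA muscle 4 was highest (log2 fold change 0.19, 95% interval -0.19 to 0.58, 0.00 without ERRα3SA muscle 4 and -0.06 without ERRα3SA muscle 1 and 4). Plin2, at 31.6 to 35.1 CPM in WT and 28.4 to 44.6 CPM in ERRα3SA muscles, G0s2, at 8.75 to 14.2 and 8.41 to 14.2 CPM, Cidec, at 7.54 to 13.9 and 6.08 to 11.1 CPM, and Acot11, at 8.18 to 10.3 and 8.39 to 11.8 CPM, overlapped between genotypes. Cidea gave 31, 15, 14 and 28 counts in WT and 15, 32, 23 and 57 in ERRα3SA muscles. The median over the 9 members was 0.13, against 0.02 over all genes. Among 38 other listed genes edgeR called 0, and 1 had an unadjusted p under 0.05, the mitochondrial thioesterase Acot2 (12.0, 16.0, 8.72 and 10.9 CPM in WT and 17.0, 23.4, 16.4 and 18.9 CPM in ERRα3SA muscles, log2 fold change 0.67, unadjusted p = 0.00791, adjusted p = 0.880). Acot2 has near-identical copies whose reads the counting could split, so its level is uncertain.

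Whether the ERRα3SA effect differed between tissues was tested by the interaction of genotype and tissue. edgeR called 0 of 10 members and 0 of 15688 genes (0%), DESeq2 called 0 members and 25 genes, and at an unadjusted p under 0.05 there were 0 members against 881 genes (5.62%). The number of genes was 369 without ERRα3SA muscle 1 and 392 without ERRα3SA muscle 1 and 4, with 0 members in both, and 3 without ERRα3SA liver 1. Intervals were wide, as for Plin5 (-0.67 to 1.28) and Plin4 (-1.05 to 1.00), and narrower for Pnpla2 (-0.18 to 0.45). Over the members the median was 0.06 against 0.00 over all genes. The count and the median include Cidea and Cideb, which passed the filter only through the tissue where they are high. Cidea had 5, 1, 1 and 0 counts in WT and 0, 1, 1 and 0 in ERRα3SA livers. Cideb had 1 count over the 4 WT and 3 over the 4 ERRα3SA muscles, so that for these 2 members a difference between tissues could hardly be seen. Of 44 other listed genes 0 were called, and 1, the thioesterase Acot12, had an unadjusted p under 0.05 in edgeR (unadjusted p = 0.0201, adjusted p = 0.844) on very low counts in muscle.

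Liver and muscle of the WT mice differed in most genes: 12874 of 14886 genes were called (86.5%, 6411 higher and 6463 lower in muscle), and so were 10 of 10 members, 6 higher and 4 lower. At that background a call says little about a member, and Cidea and Cideb passed the filter through the tissue where they are high, so that their calls were bound to come and only their counts are given. Plin4 was the member with the largest excess in muscle, 172, 169, 142 and 153 CPM against 2.93, 3.61, 1.06 and 1.1 CPM in liver (log2 fold change 6.04, SE 0.25, adjusted p = 1.63e-11). The other members that were higher in muscle were Cidec (log2 fold change 2.62, SE 0.27), Lpin1 (2.03, SE 0.25), Pnpla2 (1.72, SE 0.06) and Acot11 (0.73, SE 0.13), with adjusted p up to 9.99e-05. Higher in liver were Plin2 (-3.93, SE 0.12), G0s2 (-2.03, SE 0.23) and Plin5 (-1.49, SE 0.17), with adjusted p up to 1.94e-06. For each of these 8 members the 4 muscles and the 4 livers did not overlap. The share of all genes that lie apart in this way was not computed, so this does not set the members apart. Cidea had 5, 1, 1 and 0 counts in the WT livers and 31, 15, 14 and 28 in the WT muscles. Cideb had 6047 counts in the 4 WT livers and 1 in the 4 WT muscles, a ratio of shares of 5579.5 (95% counting interval 1001.0 to 220413). In the same muscles Nop9, which overlaps it on the other strand, was at 14.0 to 19.1 CPM. In ERRα3SA mice the counts were 4361 and 3.

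Per length, the order of the members differed between the tissues. WT livers had most Plin2 (329 TPM), then G0s2 (69.9 to 172 TPM) and Cideb (87.4 to 97.3 TPM), which overlapped, then Pnpla2 (41.8 to 45.5 TPM), Plin5 (30.3 to 43.6 TPM) and Lpin1 (13.7 to 40.5 TPM). Plin5 overlapped Pnpla2 and Lpin1, which did not overlap each other. Cidec, Acot11, Plin4 and Cidea followed at means of 2.12, 2.11, 0.939 and 0.127 TPM. WT muscles had most Pnpla2 (170.0 to 191 TPM), then Lpin1 (113 to 117 TPM) and Plin4 (70.7 to 88.0 TPM), with no overlap between these 3, and then G0s2 (28.9 to 48.3 TPM), Plin2 (25.9 to 28.8 TPM), Plin5 (11.2 to 21.2 TPM) and Cidec (11.5 to 21.6 TPM). Among these, Plin5 and Cidec overlapped, while G0s2, Plin2 and Plin5 did not. Acot11, Cidea and Cideb came last with means of 4.37, 2.22 and 0.0191 TPM. The place of Cideb in both orders is uncertain, since Nop9 covers 76.3% of its exon length.

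**Figure D4:**
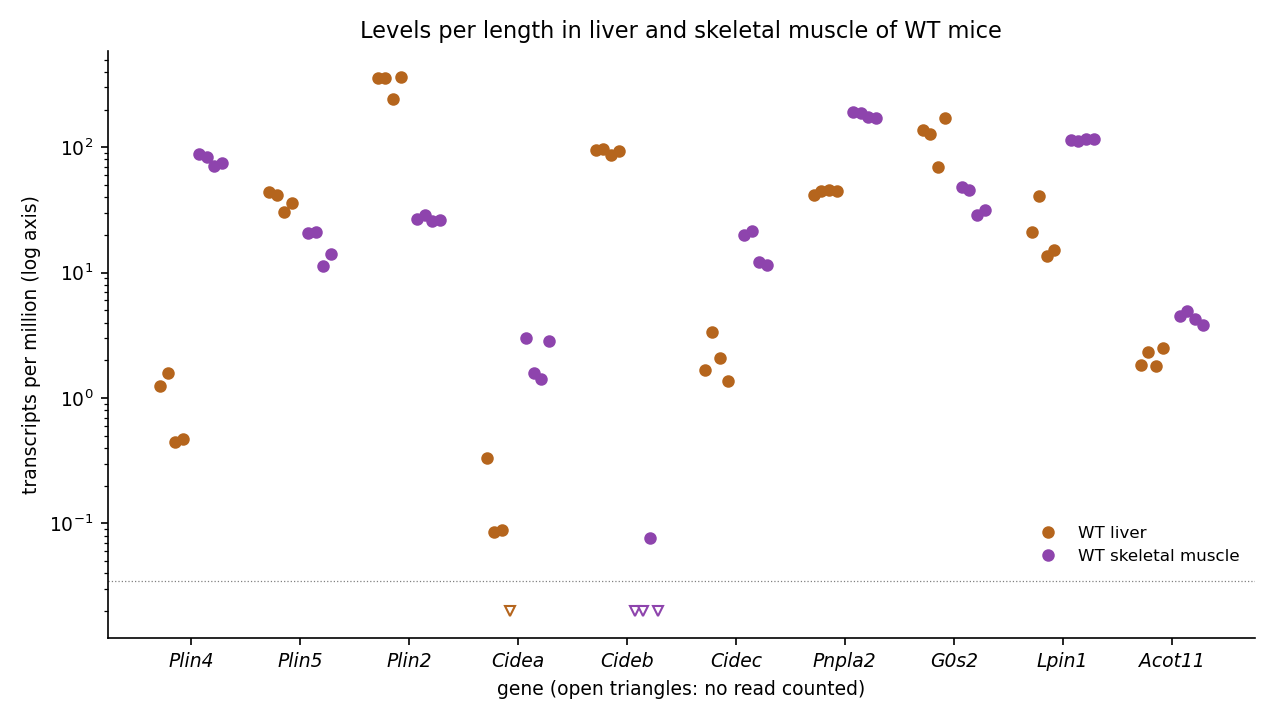
TPM (log axis) of the 10 members in the 4 livers (brown) and the 4 skeletal muscles (purple) of WT mice, 1 point per sample, with open triangles for samples without a read. Plin4 has a mean of 0.939 TPM in liver and of 79.5 TPM in muscle, and Cideb has a mean of 93.3 TPM in liver and a read in 1 of 4 muscles. The Cideb level is uncertain, since Nop9 covers 76.3% of its exon length.

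Markers of white adipocytes moved with these tissue differences, and adipocytes express several of the members. Their summed level over 7 genes was 235, 213, 169 and 146 CPM in WT muscles and 240.0, 220.1, 192 and 177 CPM in ERRα3SA muscles, against 6.60 to 9.92 CPM in WT livers. In WT muscles Fabp4 was at 123.8, 112.1, 101.5 and 93.5 CPM and Adipoq at 22.5, 21.5, 11.4 and 9.54 CPM. Adrb3 of the same list ran the other way, at 1.06, 1.23, 0.828 and 0.678 CPM in WT muscles and 1.75, 3.99, 4.52 and 4.45 CPM in WT livers. Of the 2 brown adipocyte markers, Ucp1 was at 0 to 0.206 CPM in the 8 muscles, while Zic1 was at 2.86, 2.51, 2.05 and 1.92 CPM in WT and 4.23, 2.40, 3.24 and 2.36 CPM in ERRα3SA muscles. WT muscles 1 and 2, the pair with the higher white adipocyte sums, were also the pair with higher Cidec (12.4, 13.9, 7.81 and 7.54 CPM), G0s2 (14.2, 13.9, 8.75 and 9.74 CPM), Plin5 (14.7, 15.3, 8.12 and 10.5 CPM), Plin4 (172, 169, 142 and 153 CPM), Pnpla2 (195, 198.5, 185 and 181.5 CPM) and Acot11 (9.27, 10.3, 8.91 and 8.18 CPM), while Lpin1 was lower in them (371, 378, 394 and 399 CPM). Plin2 (31.7, 35.1, 31.6 and 32.5 CPM) and Cidea (1.14, 0.617, 0.552 and 1.12 CPM) did not follow this split. The adipocyte perilipin Plin1 followed the same split, at 24.9, 23.0, 14.0 and 12.6 CPM. The split was taken from the values of these 4 muscles, some gaps were small, and the share of all genes that follow it was not computed. In ERRα3SA muscles the order was another: muscle 1 had the highest adipocyte sum and the lowest Cidec (6.08 CPM), G0s2 (8.41), Plin5 (4.83) and Plin4 (129.9 CPM) of its group. Within that sum, Fabp4 (169.2 CPM) and Adipoq (19.9 CPM) were highest in muscle 1, while Adig (1.43 CPM) and Adrb3 (0 CPM) were lowest there. What part adipocytes between the muscle fibres have in these levels was not tested.

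Of the 42 other listed genes tested between tissues 10 were higher and 27 lower in muscle, with a median of -1.17 against 0.00 over all genes. With 86.5% of all genes called, these counts describe the lists and set none of them apart. By list, muscle had 3 higher and 6 lower of 11 droplet proteins, 1 and 4 of 8 lipases and cofactors, 2 and 8 of 10 genes of glycerolipid synthesis, 3 and 5 of 8 thioesterases, and 1 and 4 of 5 acyl-CoA synthetases. Among the droplet proteins, the adipocyte perilipin Plin1 was higher (log2 fold change 7.48, SE 0.38) and Hsd17b11 (-4.02) and Ldah (-2.29) were lower in muscle. The hydrolases Lipa (-5.27), Ces1d (-4.54) and Mgll (-1.66) were lower. In glycerolipid synthesis Agpat2 (-5.51), Lpin2 (-5.36) and Dgat2 (-3.66) were lower and Agpat1 (3.24) was higher, so that the lipins Lpin1 and Lpin2 had opposite signs. Acot4 (-6.59) and Acot1 (-4.07) were lower, with the same doubt as for Acot2, and Acot9 (2.57) was higher. Of the synthetases, Acsl6 (5.87) was higher and Acsl5 (-6.37), Acsl1 (-1.69) and Acsl4 (-1.06) were lower. All of these had an adjusted p of 2.45e-08 or less. Hsd17b13, Aadac and Acot12 were also lower, but were so near 0 in muscle that no fold is given.

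WT livers were measured in both experiments, in separate tables and after different handling, so their levels are set side by side without a test. Mean Plin2 was 409.9 TPM in WT saline livers and 329 TPM in WT livers of the ERRα3SA experiment, and the ranges overlapped, as did those of Lpin1, Acot11 and Cidea. Cidec was at 42.6 against 2.12 TPM, Plin4 at 3.70 against 0.939 TPM, Plin5 at 119.9 against 37.9 TPM, Pnpla2 at 131 against 44.2 TPM and Lpin1 at 73.3 against 22.7 TPM. G0s2 (37.4 against 126 TPM) and Cideb (32.4 against 93.3 TPM) stood the other way round. For Cidec, Plin4, Plin5, Pnpla2, G0s2 and Cideb the ranges did not overlap. Cidec, for instance, was at 20 to 74.7 TPM in WT saline livers and 1.37 to 3.35 TPM in the others. The share of all genes without overlap between the experiments was not computed, so this does not set the members apart. The Cideb level is also uncertain, since Nop9 covers 76.3% of its exon length. Fasting, injection, experiment and table cannot be told apart in these differences.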

How the data were processed

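The gene counts were deposited by the authors, whose processing notes name alignment with STAR to mm10. Whether reads were counted by strand is not given in the sources used here. Ensembl identifiers were given symbols from GENCODE vM21 (97.8% of identifiers in the insulin table and 99.9% in the ERRα3SA table). Each comparison was fitted with edgeR 4.0.16 (R 4.3.3) on its own groups, with the filterByExpr filter, TMM normalization and the quasi-likelihood F-test, and DESeq2 1.42.0 was run beside it. Genes are called at a Benjamini-Hochberg adjusted p under 0.05 over all genes tested. The code was first tested on simulated data. CPM are TMM-normalized, and TPM use the union of a gene's exons as its length. Libraries of a group are separate samples rather than repeat runs: even the closest pair had a ratio of chi-square to degrees of freedom of 6.75, above the 1 that counting noise alone gives.

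The members and the lists around them were chosen with earlier results from these data known. The genes named are the 10 members in each comparison, Esrra as label check, from each wider list up to 4 genes with an adjusted p under 0.05 and the largest absolute log2 fold change, and for the ERRα3SA comparisons up to 2 genes per list with the smallest unadjusted p under 0.05. Nop9, Fam151a and Hdgfl2 were named after their values were seen, because they overlap members, as were Adipoq, Adig, Adrb3, Fabp4, Ucp1, Zic1, Myh4, Col3a1, Col1a1, Dcn, Alb and Acta1 among the markers. The alternatives were DESeq2, RLE size factors, no filter, all 4 groups of an experiment in the fit, the replicate number as a block, and leaving out each library in turn. Fits without the libraries that stood apart were added after the data were seen.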

Additional observations from a re-analysis of the deposited data

Results flagged for a closer look

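In each group of 4 samples the value farthest from the others was set against the group's range: 17 of 131 groups tested held a sample whose gap to its nearest neighbour, as a share of the range, was above Dixon's 95% critical value, where chance picks about 1 in 20 groups. What drew attention in each case is a sample far from the other 3 of its group. In 4 of the 17 the other 3 samples are at 0, so that any read in the remaining sample gives the largest ratio possible, and these 4 cannot be set against that share.

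Among the members and Esrra, Plin2 was at 292.3 CPM in WT insulin 2 (546.0 to 580.8 in the other 3) and 349.2 CPM in WT liver 3 (495.6 to 508.3). Plin4 was at 9.11 CPM in ERRα KO saline 2 (15.1 to 16.1), Cideb at 12.6 CPM in ERRα KO saline 3 (19.7 to 21.2) and Esrra at 96.4 CPM in WT insulin 2 (53.7 to 59.0). Cidea, near 0 in liver, was at 0.503 CPM in WT saline 3 and 0.551 CPM in ERRα KO saline 1. Cideb, near 0 in muscle, was at 0.0394 CPM in WT muscle 3 and 0.104 CPM in ERRα3SA muscle 2, with 0 in the other 3 of each group.

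Among the marker sums, muscle fibre markers stood at 69.8 CPM in the liver of WT insulin 3 (0.830 to 3.21 in the other 3), at 10.3 CPM in WT liver 1 (0.526 to 1.22) and at 9.58 CPM in ERRα3SA liver 3 (0.782 to 1.07). Macrophage and Kupffer cell markers were at 85.3 CPM in ERRα3SA muscle 4 (25.5 to 32.0) and 272.5 CPM in WT liver 1 (297.3 to 301.2), and endothelial markers at 329.0 CPM in ERRα3SA muscle 1 (225.7 to 240.9). Brown adipocyte markers were at 0.0228 CPM in WT saline 3 and 0.113 CPM in WT liver 2, with 0 in the other 3 of each group. Not flagged by this rule were higher sums of 0.446 and 0.842 CPM in ERRα KO saline 1 and 4. ERRα KO insulin 1, from a group of 3 that the rule leaves out, was at 0.234 CPM. In these ERRα KO livers the sum was all Ucp1. The causes were not tested.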

How the results depend on the processing

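Over all alternatives, 1159 of 1249 member values kept their direction and their side of the threshold, 26 were no longer called, 9 became called and 55 changed sign. The 55 were all of differences that were not called, and 46 of them came with 1 library left out. The causes were not tested.

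DESeq2 called 942 genes for insulin in WT livers, 1013 in ERRα KO livers, 254 (2 members) for ERRα KO after saline, 248 (2 members) after insulin, 20 for the interaction with insulin, 43 for ERRα3SA in liver, 56 in muscle and 25 for the interaction with tissue. Without a filter the numbers that moved were 640 for insulin in ERRα KO livers, 30 for ERRα KO after saline, 31 after insulin, 2 for ERRα3SA in liver and 1 for the interaction with tissue, where Plin4 became 0.0110. With all 4 groups in the fit they were 766 for insulin in WT, 262 (3 members) in ERRα KO livers, 96 for ERRα KO after insulin and 2 for ERRα3SA in muscle. Without a filter the median of all genes between muscle and liver shifted to 0.15.

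With the replicate number as a block (replicate block), 407 genes were called for insulin in WT, 514 in ERRα KO livers, 10 for ERRα KO after saline and 8 after insulin, 0 for ERRα3SA in liver and in muscle and 0 for both interactions by edgeR, and 12782 between muscle and liver, and Plin4 became 0.0930 for ERRα KO after insulin. Samples of the same number were not alike across groups (correlations over genes of -0.181 to 0.241), so the numbers were not read as pairs.

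Chosen after seeing the data, fits without WT insulin 2 and 3 called 171 genes (2 members) for insulin in WT and 20 for ERRα KO after insulin, with Plin2 at 0.16 for insulin in WT and Cideb at -0.0554 in the interaction. Fits without ERRα3SA muscle 1 and 4 called 1505 genes (2 members) for ERRα3SA in muscle and 392 for the interaction with tissue, with Plin2 at -0.18, G0s2 at 0.18 and Lpin1 at -0.0617 in muscle and Plin4 at 0.17 and Lpin1 at -0.0291 in the interaction.

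With 1 library left out, genes called ran from 105 to 409 (members 2 to 5) for insulin in WT, 42 to 608 (2 to 6) in ERRα KO livers, 2 to 47 for ERRα KO after saline, 3 to 48 (0 to 1) after insulin, 0 to 464 for ERRα3SA in muscle and 0 to 369 for the interaction with tissue. Log2 fold changes that changed sign ran as follows. For insulin in WT livers, Plin2 -0.11 to 0.17, Cideb -0.0245 to 0.19, G0s2 -0.90 to 0.15 and Acot11 -0.18 to 0.52, and in ERRα KO livers Cideb -0.12 to 0.41. For ERRα KO after saline, G0s2 -0.12 to 0.21, and after insulin Plin4 -0.33 to 0.0759 and Cideb -0.13 to 0.40. For the interaction with insulin, Cideb -0.24 to 0.30, Pnpla2 -0.0276 to 0.22 and Lpin1 -0.36 to 0.44. For ERRα3SA in liver, Plin4 -0.0695 to 0.50, Plin5 -0.0101 to 0.22, Cideb -0.29 to 0.0112, Cidec -0.36 to 0.58 and Lpin1 -0.46 to 0.36, and in muscle Plin2 -0.0776 to 0.16, G0s2 -0.17 to 0.0764 and Lpin1 -0.004 to 0.29. For the interaction with tissue, Plin4 -0.36 to 0.22, Cideb -1.34 to 2.90, Cidec -0.94 to 0.0413 and Lpin1 -0.20 to 0.68.

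With 3 or 4 mice per group, a difference that was not called is not shown to be absent, and its interval gives the sizes left possible. The livers of the insulin experiment were taken at a single time after injection, and the ERRα3SA tissues in a feeding state that the labels do not give. RNA levels do not give protein levels or the activity of the lipase. The comparisons of ERRα KO with WT and of insulin with saline share groups.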
